A study of Mus musculus with 89 samples.

Results

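The genes described here are 32 neutrophil genes that encode granule proteins, surface receptors, interleukin 1 pathway proteins and subunits of the phagocyte oxidase. They were listed by name for these functions, with earlier results of these data known, and the alarmins S100a8 and S100a9 were left out of the list. All 32 were among the 19962 targets of the probe panel, and all 32 matched a RefSeq gene symbol.

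Neutrophils carry antimicrobial proteins in granules that are filled in sequence as the cell matures in the bone marrow. Primary granules hold the serine proteases and myeloperoxidase, and the later granules hold lactoferrin, the cathelicidin and metalloproteinases. Mature neutrophils are drawn into tissue through chemokine and formyl peptide receptors and produce superoxide with a membrane-bound oxidase. Much of the granule mRNA is made in the marrow, before the cell reaches a tissue.

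The measurements are GeoMx profiles of mouse squamous cell carcinomas, in which barcoded tags are cut by ultraviolet light from probes bound to RNA inside a chosen area of a tissue section and are then sequenced. Each of the 89 segments is an area segmented and labelled as neutrophil on a stained frozen section, chosen by its stain and morphology, and it can hold parts of several cells. The authors' annotation divides the segments into 7 classes by slide and location. The naive slide, annotated as before treatment, had 15 segments in stroma, 13 at the interface of tumour and stroma, and 14 within tumour. The acute slide had 9 in stroma and 2 at the interface, and the relapse slide had 14 in stroma and 22 at the interface. Both of these slides were annotated as after treatment, and the series describes the treatment as immunotherapy without naming the agent for these segments. The annotation is not uniform for these slides: the slide classed as relapse has the slide name "treated", and the scan name of the slide classed as acute also reads "treated". The classes used here follow the authors' combined slide and location column, and every acute or relapse comparison rests on it. With 1 slide for each stage, effects of stage and of slide cannot be told apart. The scan names differ between slides, with "HRass" on the naive slide and "DMBA Relapse" on the relapse slide, so the tumour model may differ with stage as well. Strain, age and the number of animals are not given in the sources used here. Segments of a slide can share an animal or a tumour, and every p-value over segments given here is therefore too small.

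Depth, the sum of counts larger than the floor of 1, ran from 915 to 228562 per segment with a median of 11428. Of all values in the matrix, 69.1% were at the floor of 1 count. A value was taken as above the limit of quantitation when its count was over the negative-probe geometric mean times the square of the negative-probe geometric SD, and over 2 counts. This limit ran from 2 to 17.3 counts, with a median of 2 over all segments and of 9.25 in acute stroma. Plate was taken from the letter, G or H, in the segment name. All naive segments carried G and all relapse segments H, so plate and stage cannot be told apart for those slides. In acute stroma 4 segments carried G and 5 carried H, and the 2 acute interface segments carried H.

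The neutrophil label of the segments was first set against the defining markers. Of 7 neutrophil identity genes, S100a8 was above the limit in 44 of 89 segments and S100a9 in 38. Ly6g, a surface antigen used to identify mouse neutrophils, was above it in 6 segments, Mmp8 in 5, the G-CSF receptor Csf3r and the chemokine receptor Cxcr2 in 4 each, and Retnlg in 3. The 7 genes together were above the limit in 16.7% of values, the alarmins included. Some marker lists of other cells were read more often: 26.1% of values for macrophages, 27.4% for B and plasma cells, 39.4% for keratinocytes and 46.1% for fibroblasts. Erythroid genes were at 16.9%. Mast cell, T cell and endothelial markers were read less often than the 7 genes with the alarmins included, at 7.49%, 7.64% and 8.31%. The identity genes other than the alarmins were each read less often than these lists, from 6.74% of segments for Ly6g to 3.37% for Retnlg. Apart from the alarmins, the transcripts that define a neutrophil were thus not above the limit in most segments labelled neutrophil. The same held for a median panel target, which was above it in 5 segments, and 8.35% of all panel values were above it. By summed counts Ly6g was at percentile 84.7 of the panel and Csf3r at 50.3. Mmp8 was at 42.2, Retnlg at 39.3 and Cxcr2 at 22.7. In bulk segments, fewer cells of a type and less RNA per cell cannot be told apart.

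Across the whole list, 185 of 2848 member values, or 6.50%, were above the limit of quantitation, against 8.35% of the values of all targets. A member was above the limit in a median of 5 segments, and a panel target also in a median of 5. Counts over the floor summed to a median of 96.5 per member and 95 per panel target. The list as a whole was read no more often than an average target of the panel. In 37 of 89 segments no member was above the limit, and in 26 segments 3 or more were.

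**Figure D1:**
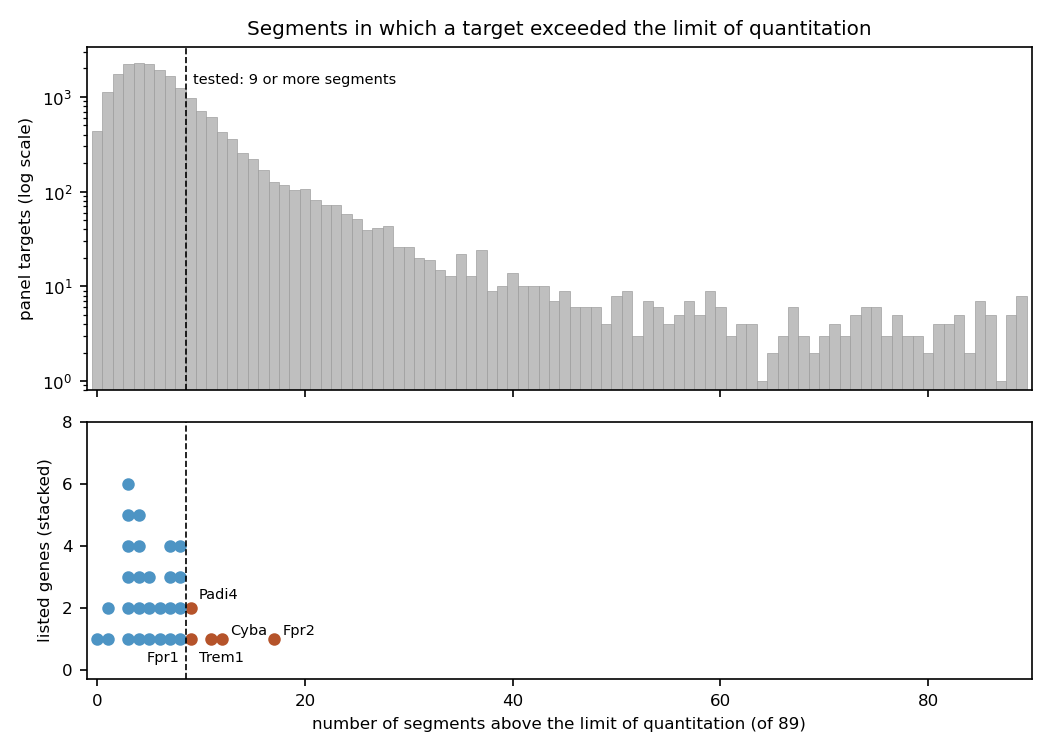
Number of segments, of 89, in which each of the 19962 panel targets (grey bars, log scale) and each of the 32 neutrophil genes (stacked dots) was above the limit of quantitation. The dashed line marks the minimum of 9 segments for testing, and the 5 genes to its right, in red, run from 9 to 17 segments.

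The filter of 10% of segments was passed by 5 of the 32 genes, and by 25.5% of all targets. They were Fpr2 in 17 segments, Cyba in 12, Trem1 in 11, and Fpr1 and Padi4 in 9 each. The other 27 members were above the limit in 8 segments or fewer and are given by those counts alone.

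The primary granule genes were the least often read group. Mpo, which encodes myeloperoxidase, was above the limit in 4 segments, the serine protease genes Ctsg and Elane in 3 each, and Prtn3 in 1. Of the 11 values above the limit in this group, 9 came from the naive interface and naive within-tumour classes. None came from naive stroma. The group was read in 9.62% of values at the naive interface, against 16.7% for all targets there. Within naive tumour it was read in 7.14% against 8.87%, and in naive stroma in 0% against 10.5%. Pooled over all segments, the group held 0.628 times the count share of an average set of 4 targets. That average is a mean over all targets, which the most abundant targets raise.

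Among the 8 secondary and tertiary granule genes, Camp, the cathelicidin gene, and Chil3, a chitinase-like protein gene, were each above the limit in 8 segments. Ngp followed with 7, the gelatinase gene Mmp9 with 6, and Lcn2, the gene of the iron-siderophore binding protein lipocalin 2, and the collagenase gene Mmp8 with 5 each. Pglyrp1, for a peptidoglycan recognition protein, reached 3. Ltf, the lactoferrin gene, was above the limit in 0 of 89 segments, with a highest count of 11 in acute stroma that did not exceed its segment's limit. The group's pooled share was 0.769 times the panel average.

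The chemokine, growth factor and formyl peptide receptors were read more often than either granule group, at 9.44% of values. Fpr2 and Fpr1 encode receptors for formylated peptides and are neighbours on chromosome 17 in the GRCm38.p6 annotation of RefSeq. Fpr1 lies at 17876471 to 17883939 and Fpr2 at 17887824 to 17893952. Cxcr4, the receptor for the retention chemokine Cxcl12, was above the limit in 8 segments, and Csf3r and Cxcr2 in 4 each. The group's pooled share was 0.966 times the panel average.

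Of the adhesion and pattern receptors, Trem1, an amplifier of innate signals, was above the limit in 11 segments and Ly6g in 6. The pattern receptor gene Clec4e reached 5, and the integrin genes Itgb2 and Itgam reached 4 and 3. Il1b, an inflammatory cytokine gene, was above the limit in 7 segments and the decoy receptor gene Il1r2 in 1. The highest Il1b count, 29, was in an acute interface segment and was 4.51 times that segment's limit.

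Of the oxidase genes, Cyba, which encodes the small membrane subunit, was above the limit in 12 segments. The cytosolic subunit gene Ncf4 was above it in 7, Cybb, the catalytic membrane subunit gene, in 4, and Ncf1 in 3. The remaining members were Padi4, a histone-modifying enzyme gene needed for neutrophil extracellular traps, in 9 segments, Wfdc21 in 8, Hdc, the histamine-forming enzyme gene, in 7, and Retnlg in 3. Cyba and Cybb, Itgam and Itgb2 are examples of members also expressed by macrophages, so their counts are not specific to neutrophils. A segment can hold parts of several cells, and the cell source of the other members' counts was not tested either.

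**Figure D2:**
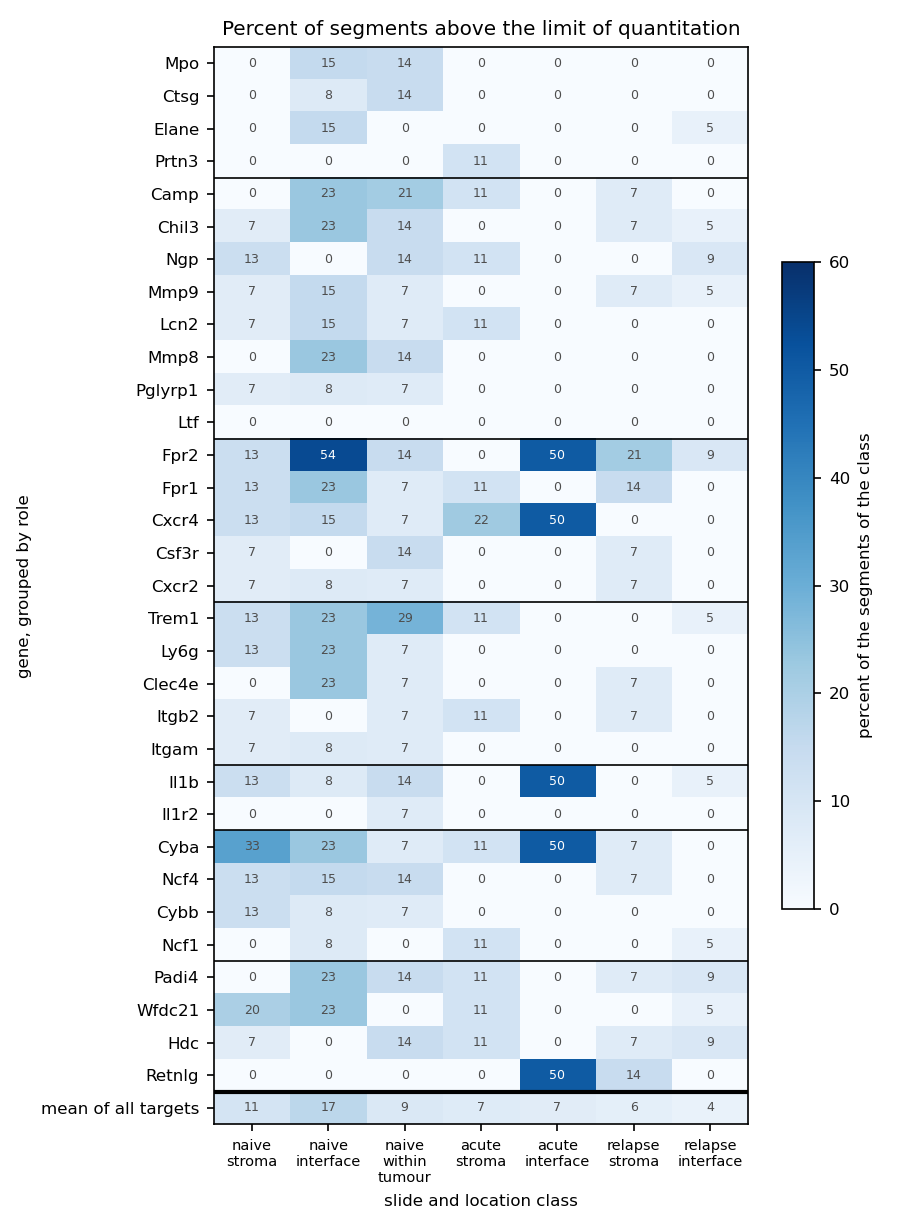
Percent of segments above the limit of quantitation for each of the 32 genes (rows, grouped by role) in the 7 classes (columns), with the mean over all panel targets in the last row. Fpr2 at the naive interface is the darkest cell outside the 2-segment acute interface class, where each segment counts for 50%.

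The members' reading rate followed that of the panel across classes. At the naive interface 13.5% of member values were above the limit against 16.7% of all values, and in naive stroma 7.29% against 10.5%. The values within naive tumour were 9.38% against 8.87%. In acute stroma they were 4.86% against 7.29%, and at the acute interface, with 2 segments, 7.81% against 6.57%. Relapse stroma gave 4.02% against 5.51% and the relapse interface 2.13% against 4.00%. Both rates were lowest at the relapse interface, where the median depth was 5564.5, against 26878 at the naive interface. The rates did not rank by depth. Median depth was 81873 in acute stroma and 65756 at the acute interface. Both classes had a panel rate under that of naive stroma, where it was 16264. The part of depth in the rates was not tested.

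Members per segment ran from 0 to 17. The segment with most was at the naive interface, where 17 of 32 genes, or 53.1%, were above the limit, and 36.1% of all targets were above it in the same segment. The genes there included Ly6g, Mmp8, Mmp9, Lcn2, Trem1, Fpr1, Fpr2, Cyba and Padi4. The next segment, within naive tumour, had 13 members, 40.6%, against 40.5% of all targets. These segments were named after their values were seen.

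Pooled over all segments, the 32 genes held 3150 of 2352840 counts, or 0.134% of depth, with an exact 95% binomial interval of 0.129% to 0.139%. An average set of 32 targets would hold 0.160%. The interval covers counting error only. The ratio of the members' share to the panel average was 0.835 over all segments. The panel average is a mean, which the most abundant targets raise. The highest target held 28572 counts, against a median of 95 per panel target and 96.5 per member. A ratio under 1 therefore does not set the members below a median target. A share also depends on the counts of all other targets in a segment.

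By class the ratio was 0.854 in naive stroma, 0.763 at the naive interface and 0.894 within naive tumour. It was 0.876 in acute stroma and 0.944 at the acute interface, and 0.678 in relapse stroma and 0.745 at the relapse interface. The segments of the classes overlapped. In naive stroma the segment ratio ran from 0.480 through a median of 0.712 to 1.46, at the naive interface from 0.269 through 0.752 to 1.22, and within naive tumour from 0.400 through 0.886 to 1.25. It ran from 0.357 through 0.927 to 1.01 in acute stroma, and was 0.619 and 1.27 in the 2 acute interface segments. In relapse stroma it ran from 0 through 0.573 to 1.20 and at the relapse interface from 0 through 0.742 to 1.96. Of 89 segments, 15 were over the panel average, which is a mean and not the level of a median target. Counted from values above the limit of quantitation alone, the ratio was 0.503 in naive stroma, 0.633 at the naive interface and 0.871 within naive tumour. It was then 0.250 in acute stroma, 1.13 at the acute interface, 0.521 in relapse stroma and 0.386 at the relapse interface. These shares are descriptions and were given no test.

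**Figure D3:**
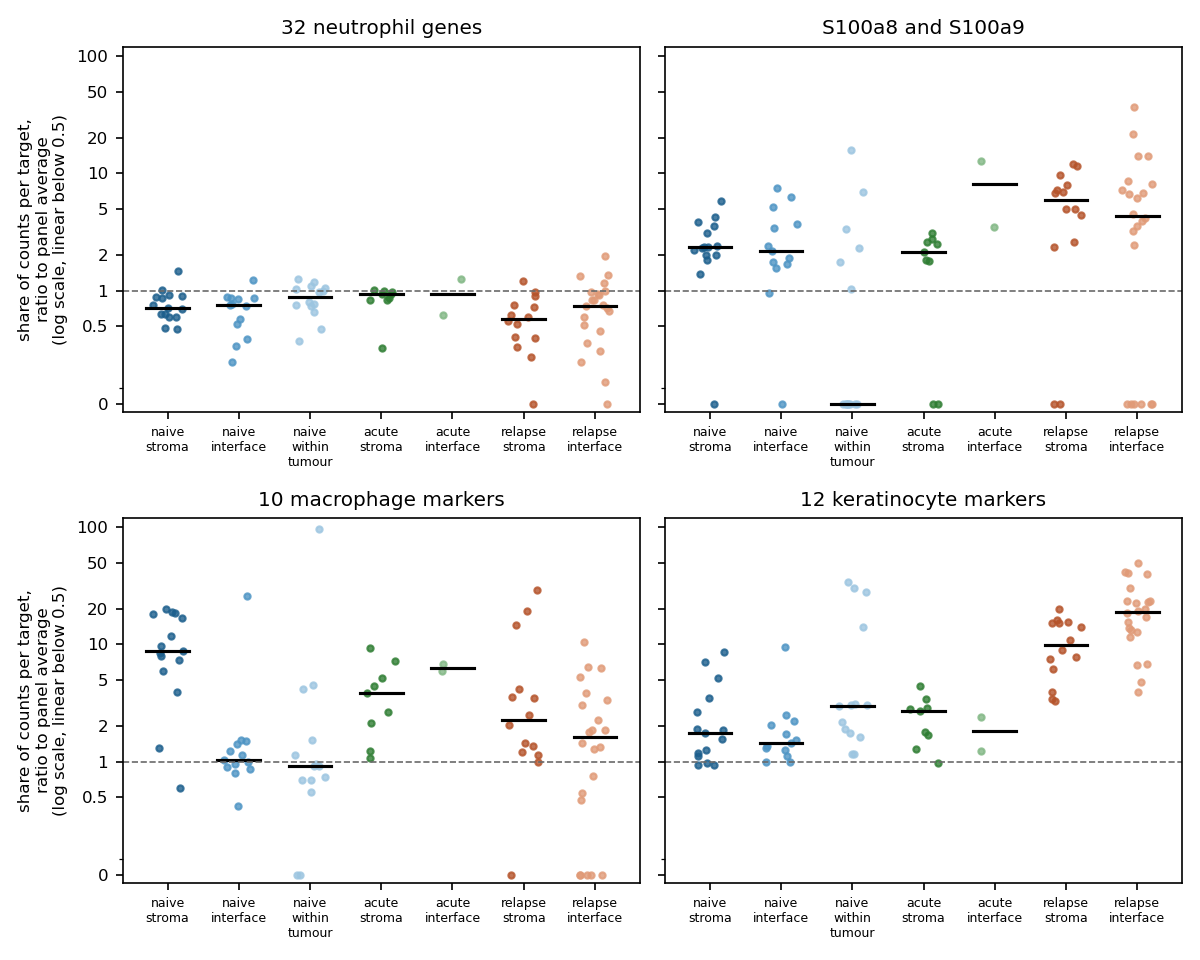
Share of a segment's counts per target, as a ratio to the panel average (dashed line), for the 32 neutrophil genes, the alarmins and the macrophage and keratinocyte markers in the 7 classes, with 1 point per segment and a bar at the median. The axis is logarithmic above 0.5 and linear below. The neutrophil genes lie around or under the panel average in every class, with medians from 0.573 to 0.943. The panel average is a mean over targets, which the most abundant targets raise.

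The alarmins, which neutrophils and also stressed keratinocytes express, stood at 3.04 times the panel average over all segments. Their ratio was 2.25 in naive stroma, 2.30 at the naive interface, 2.11 within naive tumour and 2.39 in acute stroma, against 8.12 at the acute interface, 5.04 in relapse stroma and 6.15 at the relapse interface. Keratinocyte markers were at 3.74 in naive stroma, 1.66 at the naive interface, 3.55 within naive tumour and 2.10 in acute stroma. They were at 1.82 at the acute interface, and at 7.88 in relapse stroma and 17.9 at the relapse interface. The acute interface has 2 segments, in which the alarmins held 0.127% and 0.0351% of depth. Macrophage markers were at 9.84 in naive stroma and 1.61 at the naive interface, and fibroblast markers at 29.4 and 4.40. In the fit described next, 0 of the 2 alarmins passed in any of the 8 comparisons. None of these comparisons included the acute interface, so its alarmin ratio was not tested. The part of keratinocytes, macrophages and fibroblasts in the alarmin values was not tested.

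Expression was compared with limma on log2 of the normalised signal plus 1, with log2 depth as a covariate and Benjamini-Hochberg adjustment over the 5087 tested targets, with 5 members among them. In the 8 comparisons 0 of the 5 members passed an adjusted p of 0.05. Of the 40 member differences, 5 had an unadjusted p under 0.05. Over all tested targets that share ran from 2.40% to 24.5%, depending on the comparison. The same fit was run on simulated counts with known changes, which were placed at the naive interface alone. On those counts it called more unchanged targets than its threshold allows, most often for naive interface against stroma among the comparisons scored. Neither segment weights nor robust moderation removed this. Counts of called targets may therefore be too high. Comparisons without the naive interface were not simulated with a change. The shares of all targets called, given below as background, also depended on the settings: rescaled to equal depth, 26 targets were called in place of 540 for naive interface against stroma.

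In the naive slide, the question was whether neutrophil transcripts differ with location before treatment. Between interface and stroma 0 of 5 members were called, where 10.6% of all tested targets were. Within tumour against stroma 0 of 5 were called against a background of 4.13%. Within tumour against interface 0 of 5 were called against 0%, with 371 targets at an unadjusted p under 0.05.

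Cyba had the smallest adjusted p of any member. Its signal ran from 1.87 through a median of 3.74 to 11.2 in naive stroma and from 1.25 through 2.24 to 11.2 at the naive interface. Cyba was above the limit in 5 of 15 stroma and 3 of 13 interface segments, and the groups overlapped over almost their whole range. The fitted difference of interface minus stroma was -0.49 (SE 0.176) with an adjusted p of 0.0564 in limma, while the median of all tested targets was -0.14. Within tumour minus stroma the difference was -0.37 (adjusted p 0.313). Tissue pieces were taken as clusters of the deposited coordinates. Without piece 3 of the naive slide, which held 6 of the 15 stroma segments and 0 interface segments, the interface difference was -0.69 and passed the threshold, with an adjusted p of 0.0140. In the same comparison macrophage markers fell in 7 of 9 tested genes and fibroblast markers in 8 of 8, and their part in the Cyba value was not tested.

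Fpr2 went the other way by detection. It was above the limit in 7 of 13 naive interface segments and 2 of 15 naive stroma segments, and in 2 of 14 within tumour. Its signal ran from 1.25 through 3.74 to 11.2 in stroma and from 1.87 through 3.74 to 9.97 at the interface, so that the medians were the same and the groups overlapped. The fitted difference was 0.35 (SE 0.221) with an adjusted p of 0.337 in limma, and its 95% interval ran from -0.09 to 0.79. Trem1, Fpr1 and Padi4 differed by -0.08, -0.06 and 0.02 in this comparison, and the sign of each changed under other settings. With no filter on low values, 1 of 32 members was called, against 3.68% of all targets: Csf3r, at -0.54 with an adjusted p of 0.0346 in limma, which was above the limit in 1 of 15 stroma and 0 of 13 interface segments.

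**Figure D4:**
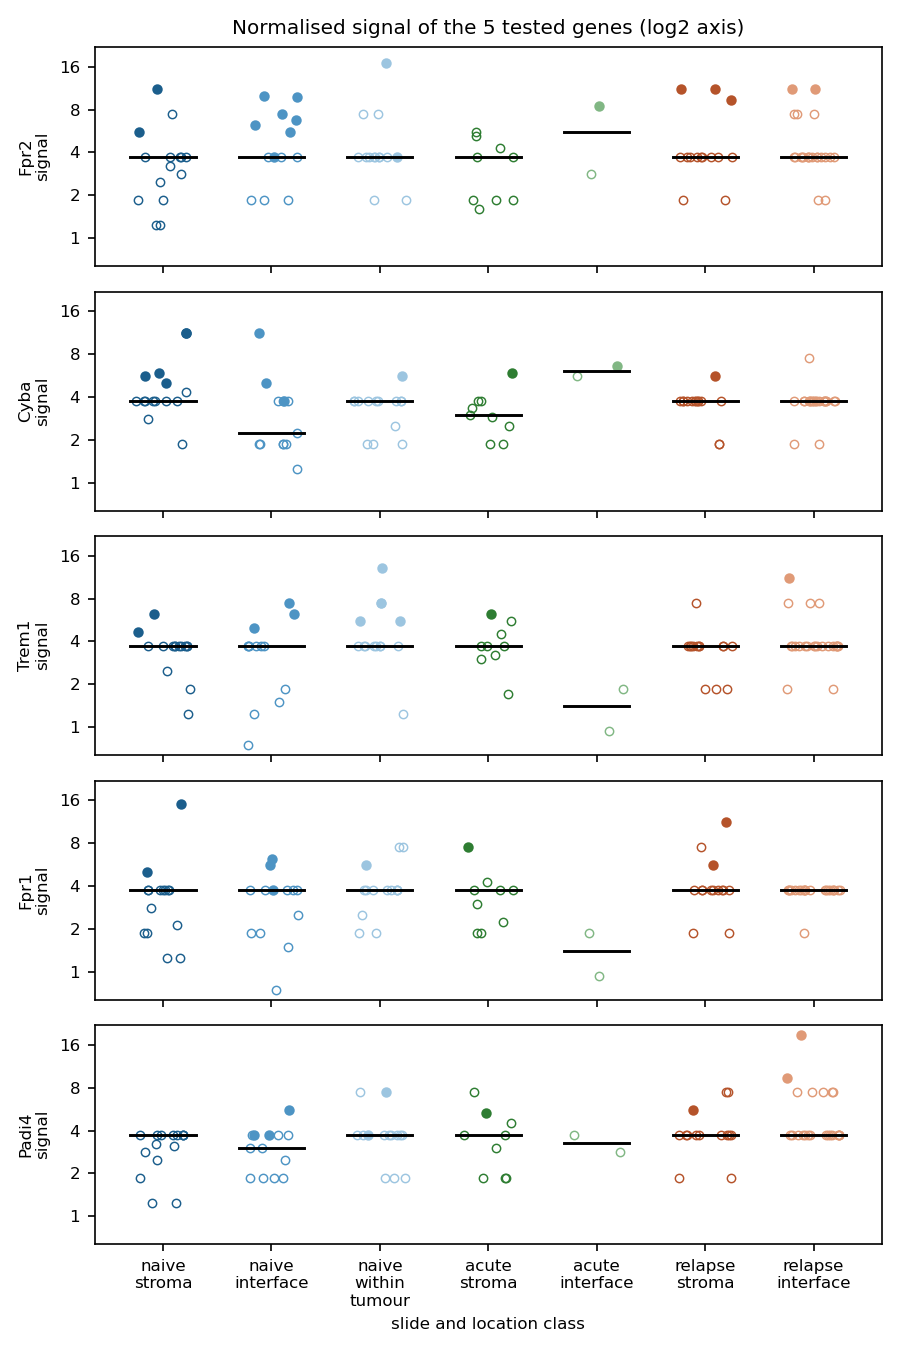
Normalised signal of the 5 tested genes (log2 axis) in the 7 classes, with 1 point per segment, filled where the count was above the limit of quantitation and open where it was not, and a bar at the median. Most points are open and lie on the same level of 3.74, which is the signal of 1 count in 51 of the 89 segments.

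In the relapse slide, interface and stroma were compared after treatment. Of 5 members 0 were called, against 0% of all tested targets, of which 122 had an unadjusted p under 0.05. The member differences ran from -0.17 for Fpr1 to 0.26 for Padi4. Fpr1 was above the limit in 2 of 14 stroma and 0 of 22 interface segments, and Cyba in 1 and 0.

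Stage was compared within stroma. For acute minus naive stroma 0 of 5 members were called, against 0.118% of tested targets. Cyba had a difference of -0.43 (SE 0.198, adjusted p 0.409), with a signal from 1.87 through 2.99 to 5.88 in acute stroma, and the groups overlapped. The other 4 members lay between -0.07 and 0.20. For relapse minus naive stroma 0 of 5 members were called against 1.67%, and the differences ran from -0.29 for Cyba to 0.25 for Fpr2 and Padi4. Keratinocyte markers rose in 6 of 10 tested genes in this comparison.

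At the interface, relapse minus naive gave 0 of 5 members called against 1.3% of tested targets. Padi4 had the largest member difference, 0.50 (SE 0.193), with an adjusted p of 0.194 in limma and a 95% interval from 0.11 to 0.88. Its signal ran from 1.87 through 2.99 to 5.61 at the naive interface and from 3.74 through 3.74 to 18.7 at the relapse interface. Padi4 was above the limit in 3 of 13 naive and 2 of 22 relapse segments, so that detection and fitted difference point opposite ways. The lowest relapse value, 3.74, is the signal of 1 count there, and the 2 classes differ in median depth as given above. With no depth covariate the difference was 0.59 and passed, with an adjusted p of 0.0188, as did 9.77% of all targets. Keratinocyte markers rose in 7 of 10 tested genes.

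The change of the location difference from naive to relapse was tested as an interaction. Of 5 members 0 were called against 3.44%. Cyba had a change of 0.53 (SE 0.238, adjusted p 0.223) and Fpr2 of -0.36 (adjusted p 0.582). The 95% interval for Fpr2 ran from -0.95 to 0.23.

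**Figure D5:**
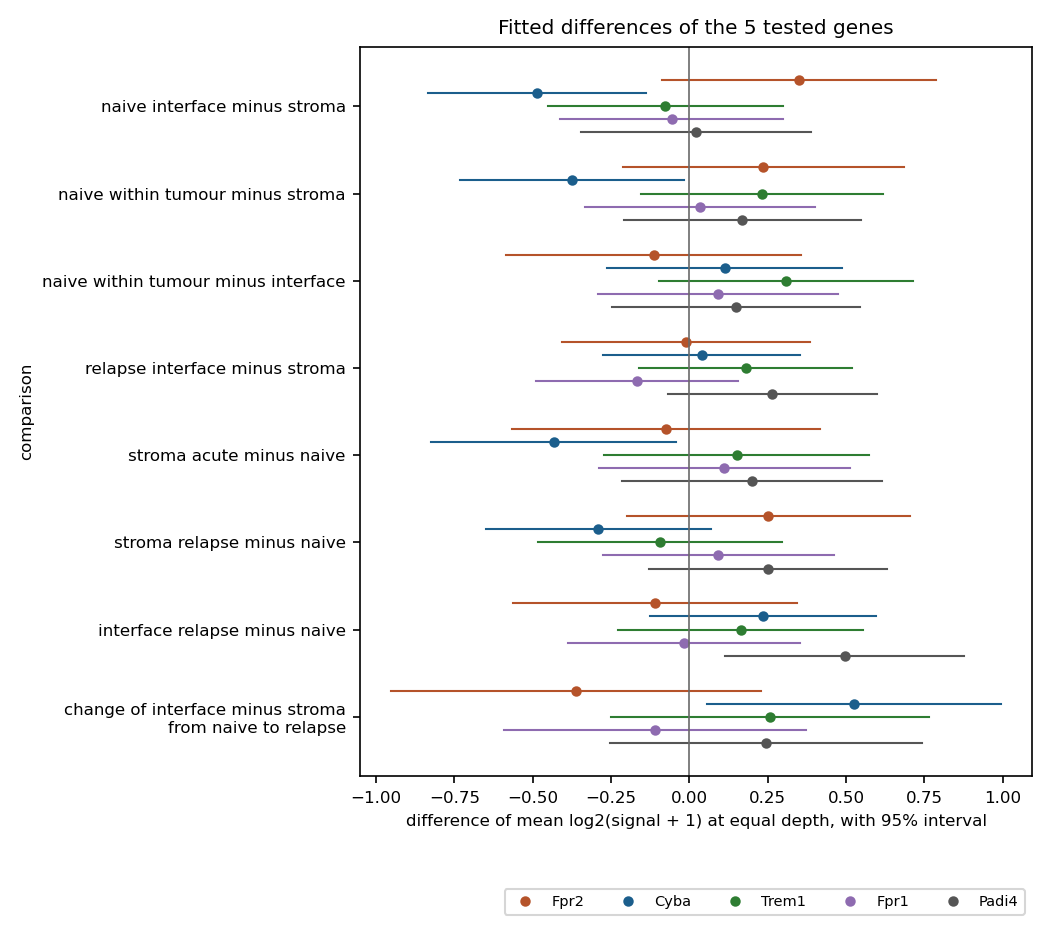
Fitted log2 differences of the 5 tested genes in the 8 comparisons, with 95% intervals. Of the 40 intervals, 5 leave out 0 (4 of Cyba and 1 of Padi4), and 0 differences passed the adjusted threshold. Of all tested targets, 2.40% to 24.5% had an unadjusted p under 0.05 in limma, depending on the comparison.

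The levels of tested members went together weakly across segments. The highest Spearman rho of the share of depth were 0.454 for Fpr1 and Cyba, 0.412 for Trem1 and Cyba and 0.375 for Trem1 and Fpr1, over 89 segments that differ in depth. Both genes of the first pair were above the limit in 6 segments. In sparse counts these are descriptions only.

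Other genes of neutrophil recruitment and function were taken from a list of 54, of which 51 were on the panel and 25 were tested. Between naive interface and stroma 0 of the 25 rose and 5 fell, while 27 of all 5087 tested targets rose and 513 fell. Cxcl12, the chemokine ligand of Cxcr4, had a mean signal of 12.2 in stroma and 4.71 at the interface. Its fitted log2 difference was -1.36, with an SE of 0.256 and a limma adjusted p of 3.33e-05. Lyz2, a lysozyme gene of myeloid cells, fell by 0.84, the signalling adaptor genes Tyrobp and Fcer1g by 0.82 and 0.63, and Ifitm1 by 0.69. The list's median difference was -0.32 against -0.14 for all tested targets. Macrophage and fibroblast markers fell with them, as given above, and their part was not tested. All 5 calls were lost when counts were rescaled to equal depth, when they were thinned to 2000 per segment, or when naive piece 4, with 8 of the 13 interface segments, was left out. All 5 differences remained negative under these 3 settings. With tissue piece as a random block Fcer1g no longer passed (-0.62, adjusted p 0.0539), and the other 4 did. Fcer1g was also lost with no filter (adjusted p 0.0533), with only the classes compared (0.119), with segment weights (0.190), and without naive piece 1 (0.168) or relapse piece 1 (0.0506). Tyrobp was lost with segment weights (0.0791). Rescaled, the difference of Cxcl12 was -0.93 with an adjusted p of 0.347.

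Cxcl12 was the only gene of this list to pass in any other comparison. It fell by 1.41 within naive tumour against stroma (adjusted p 4.34e-05) and by 1.14 in relapse against naive stroma (adjusted p 0.00437), and its location difference changed by 1.31 from naive to relapse (adjusted p 0.0152). Of all tested targets, 4.13%, 1.67% and 3.44% passed in these comparisons, in that order. Fibroblast markers moved with Cxcl12, with 7 of 8 lower within tumour, 6 of 8 lower in relapse stroma and 6 of 8 higher in the change. Macrophage markers were lower in 6 of 9 within tumour and in 2 of 9 in relapse stroma, and higher in 2 of 9 in the change. Their part in the Cxcl12 values was not tested.

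The Cxcl12 fall within tumour also passed after rescaling to equal depth (-1.50, adjusted p 0.00804), and did not after thinning (-0.48, adjusted p 0.333). In relapse against naive stroma the Cxcl12 call was lost with plate as a covariate, where the difference was -0.31 (adjusted p 0.953). That term rests on the acute stroma segments alone, since they are the only class on both plates. The call was also lost after thinning, at -0.18. It was lost with a difference of similar size after rescaling (-1.02, adjusted p 0.224), with only the classes compared (-0.97, 0.282) and without relapse piece 3 (-1.15, 0.378), and at -0.79 (0.269) without naive piece 3. The call of the change from naive to relapse was lost after rescaling, at 0.69, and after thinning, where the sign was opposite, at -0.03. It was also lost at 1.03 without naive piece 3 (adjusted p 0.0958), 0.83 without naive piece 4 (0.430), 1.15 without relapse piece 1 (0.246), 1.43 without relapse piece 3 (0.122) and 1.15 with segment weights (0.0524). In the remaining comparisons 0 of 25 passed.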

How the data were processed

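Per the file headers, the authors deposited a matrix of upper-quartile normalised signal for 89 segments with an annotation table. The deposited factor of each segment is a ratio that the file headers name a quantile normalisation factor, and its reference is not stated. Multiplying each value by it gave whole counts for 99.99% of values (tolerance 1e-06), with a floor of 1. Per the submitters' processing notes Seurat and mm10 were used. The aligner and the counting software are not given in the sources used here.

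Counts over 1 were summed as depth. Targets above the limit of quantitation in at least 10% of segments were tested with limma 3.58.1 in R 4.3.3 (pseudocount 1, class means, log2 depth as covariate). The fit was tested on simulated data and called too many unchanged targets. The members and all lists were chosen with earlier results of these data known. Every member is named: tested members with differences, others with segments above the limit. From the list of 54 genes, those passing are named. No 2 segments held identical counts. Tissue pieces were clustered from deposited coordinates at a distance of 6500, chosen after seeing them.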

Additional observations from a re-analysis of the deposited data

Results flagged for a closer look

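In acute stroma, the only class of 4 to 10 segments, 6 values were examined for a segment far from the others over its 9 segments, and 3 stood past Dixon's critical value of 0.493. Chance flags about 1 in 20 such groups when values follow a normal distribution, which signals near a count floor need not do. The members' share was 0.357 times the panel average in 1 segment, where the next lowest was 0.824. That segment had the lowest depth of the class, 3495, against a class median of 81873. The Fpr1 signal was 7.48 in 1 segment, where the next highest was 4.27. The value of 7.48 came from 4 counts, while the highest Fpr1 count of the class was 13. The Cyba signal was 5.88, from 11 counts, in 1 segment, where the next highest was 3.74, the signal of 1 count.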

How the results depend on the processing

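Each count of members called and each of the 40 member differences was recomputed under 28 alternatives, of which the tissue pieces as a block or left out, the segment weights and the robust moderation were chosen after seeing the data. The direction of the member differences was not stable: 24 of the 40 changed sign under at least 1 alternative, in 57 of 1120 values, and 2 of the 40 passed the threshold under any. The cause was not tested.

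Members called rose from 0 to 1 for naive interface minus stroma with no filter (Csf3r, -0.54, against 3.68% of all targets). Leave-outs gave 0 to 1, the 1 without naive piece 3 (Cyba). For interface relapse minus naive they rose to 1 with no depth covariate (Padi4, against 9.77%). The share ratio from counts above the limit of quantitation was 0.503 in naive stroma, 0.250 in acute stroma and 0.386 at the relapse interface, against 0.854, 0.876 and 0.745.

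Signs changed as follows, with log2 differences. Rescaled to the same depth, Trem1 was 0.24 in naive interface minus stroma, Fpr1 was 0.17 in naive interface minus stroma, Fpr2 was 0.13 in naive within tumour minus interface, Padi4 was -0.014 in naive within tumour minus interface. Thinned to 2000 counts (3 segments left out), Trem1 was 0.077 in naive interface minus stroma and 0.071 in stroma relapse minus naive, Fpr1 was -0.022 in stroma acute minus naive and -0.062 in stroma relapse minus naive, Fpr2 was 0.077 in naive within tumour minus interface and 0.22 in stroma acute minus naive, Cyba was -0.071 in relapse interface minus stroma, Padi4 was -0.12 in naive interface minus stroma and -0.20 in naive within tumour minus stroma and -0.077 in naive within tumour minus interface and -0.089 in stroma acute minus naive, Cxcl12 was -0.028 in the change from naive to relapse. With plate as a covariate, Fpr1 was -0.0046 in naive within tumour minus stroma and -0.24 in stroma acute minus naive and -0.62 in stroma relapse minus naive, Fpr2 was 0.028 in stroma acute minus naive and 0.10 in interface relapse minus naive. With only the classes compared, Fpr1 was -0.043 in naive within tumour minus stroma, Fpr2 was 0.0032 in relapse interface minus stroma and 0.25 in interface relapse minus naive, Cyba was -0.00011 in naive within tumour minus interface. With no depth covariate, Fpr1 was 0.21 in interface relapse minus naive, Fpr2 was 0.00058 in relapse interface minus stroma. With segment weights, Trem1 was -0.0070 in stroma acute minus naive and 0.048 in stroma relapse minus naive, Fpr1 was 0.13 in interface relapse minus naive and 0.0063 in the change from naive to relapse, Fpr2 was 0.058 in naive within tumour minus interface, Padi4 was -0.090 in naive interface minus stroma.

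Leaving out 1 tissue piece or 1 acute interface segment at a time also changed signs. For Trem1 the range was -0.25 to 0.40 in naive within tumour minus stroma, -0.18 to 0.47 in naive within tumour minus interface, -0.19 to 0.066 in stroma relapse minus naive, -0.019 to 0.31 in interface relapse minus naive. For Fpr1 the range was -0.29 to 0.11 in naive interface minus stroma, -0.18 to 0.27 in naive within tumour minus stroma, -0.13 to 0.27 in stroma acute minus naive, -0.12 to 0.30 in stroma relapse minus naive, -0.072 to 0.024 in interface relapse minus naive, -0.27 to 0.13 in the change from naive to relapse. For Fpr2 the range was -0.22 to 0.40 in relapse interface minus stroma, -0.24 to 0.086 in stroma acute minus naive, -0.039 to 0.46 in stroma relapse minus naive, -0.34 to 0.014 in interface relapse minus naive, -0.58 to 0.053 in the change from naive to relapse. For Cyba the range was -0.10 to 0.21 in relapse interface minus stroma. For Padi4 the range was -0.12 to 0.12 in naive interface minus stroma.

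The alternative of a filter at 20% of segments left no member to test, and edgeR and DESeq2 were not run because the deposited values taken without the factor gave whole multiples too seldom to count as recovered reads. Most counts were at the floor. The segments carry no replicate numbers. Several tissue pieces held more than 1 class, and with tissue piece as a random block 0 members were called in each of the 8 comparisons, with Cyba in naive interface minus stroma at -0.49 (adjusted p 0.0915).

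The number of all tested targets called moved by over 1.5 times under many settings. For naive interface minus stroma it was 540, against 26 rescaled, 12 thinned, 312 with only the classes compared and 67 without naive piece 4. For naive within tumour minus stroma it was 210, against 135 with no filter, 88 rescaled, 31 thinned, 127 with only the classes compared, 77 with segment weights, and 113 and 63 without naive pieces 1 and 4. For relapse minus naive stroma it was 85, against 55 with no filter, 52 rescaled, 12 thinned, 2 with plate as a covariate, 16 with only the classes compared, 54 with the tissue piece block, and 55, 52 and 6 without naive pieces 1 and 3 and relapse piece 3. For relapse minus naive interface it was 66, against 497 with no depth covariate, 36 with no filter, 43 with a pseudocount of 4, 10 rescaled, 13 thinned, 4 with plate, 26 with the block, 19 with segment weights, and 110, 7 and 19 without naive pieces 1 and 4 and relapse piece 1. For the change from naive to relapse it was 175, against 91 with no filter, 4 rescaled, 2 thinned, 80 with the block, 103 with segment weights, and 10, 17 and 18 without naive piece 4 and relapse pieces 1 and 3. For acute minus naive stroma it was 6, against 0 rescaled or with plate, 1 with no depth covariate, thinned or with only the classes compared, 2 with segment weights, 3 with robust moderation, and 53, 15 and 17 without acute piece 1 and naive pieces 3 and 4. For within tumour minus interface and relapse interface minus stroma it was 0, and at most 3 and 5 under any alternative.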
